A study of Mus musculus with 18 samples.

Results

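Clearance of dying cells, or efferocytosis, was followed in adipose tissue through 10 genes: the TAM receptors Mertk, Axl and Tyro3, the bridging molecules Gas6, Pros1 and Mfge8, and the phosphatidylserine receptors Cd300a, Cd300lb, Stab1 and Timd4. They were chosen by name from the 55487 genes counted in each library, and all 10 had a row in every file. RNA was sequenced from 18 male mice, 1 mouse per library, fasted for 4 h. The subcutaneous white adipose tissue (sWAT) came from 4 Ctrl and 4 Csn8AKO mice at 12 weeks of age, and the brown adipose tissue (BAT) from 5 Ctrl and 5 Csn8AKO mice at 4 weeks of age. All the mice carried floxed Csn8 (Csn8 f/f), the Ctrl mice being littermates that the sample labels call WT. The Csn8AKO mice also carried a Cre driven by the adiponectin promoter, which is active in adipocytes, so macrophages, stromal cells and vessels were not meant to lose the gene. Tissue and age cannot be told apart in this design. Bulk RNA also cannot tell fewer or more cells of a type from less or more RNA per cell.

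Dying cells expose phosphatidylserine, a lipid normally kept on the inner face of the plasma membrane. Phagocytes either bind it directly, through receptors such as TIM-4 (Timd4), stabilin-1 (Stab1) and the CD300 proteins, or through soluble bridging molecules. GAS6 and protein S (Pros1) link the lipid to the TAM receptor tyrosine kinases, and MFG-E8 (Mfge8) links it to integrins. In adipose tissue, macrophages gather around dead adipocytes and take up their lipid.

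Cd300a, Cd300lb and Pros1 were the members called higher in Csn8AKO mice in both tissues, and the 250 bases before their RefSeq start sites are shown for that reason, 5′ to 3′ along the gene (GRCm38.p6). Cd300a lies at chr11:114890041-114904654 on the plus strand and Cd300lb at chr11:114922781-114934386 on the minus strand of the same chromosome, while Pros1 lies at chr16:62854307-62929346 on the plus strand. The stretches printed are chr11:114889791-114890040 for Cd300a, chr11:114934372-114934621 for Cd300lb and chr16:62854057-62854306 for Pros1. Capitals mark matches, on either strand, to GAGGAA (the core of the motif of PU.1, a myeloid transcription factor), TGANTCA (AP-1) or CCGCCC (a GC box).
Cd300a: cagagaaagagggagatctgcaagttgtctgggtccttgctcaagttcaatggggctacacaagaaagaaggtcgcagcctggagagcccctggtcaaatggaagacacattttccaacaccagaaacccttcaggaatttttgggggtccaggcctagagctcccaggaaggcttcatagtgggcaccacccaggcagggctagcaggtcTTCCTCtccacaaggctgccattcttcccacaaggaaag
Cd300lb: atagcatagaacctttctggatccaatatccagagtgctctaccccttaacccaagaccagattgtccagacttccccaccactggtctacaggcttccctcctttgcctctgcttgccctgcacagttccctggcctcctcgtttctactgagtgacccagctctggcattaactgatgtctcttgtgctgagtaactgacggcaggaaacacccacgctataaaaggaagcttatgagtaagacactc
Pros1: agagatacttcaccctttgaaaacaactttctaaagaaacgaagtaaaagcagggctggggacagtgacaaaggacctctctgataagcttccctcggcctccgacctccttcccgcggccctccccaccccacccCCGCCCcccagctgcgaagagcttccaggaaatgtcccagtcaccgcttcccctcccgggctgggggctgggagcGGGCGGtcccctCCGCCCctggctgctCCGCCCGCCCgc
The Cd300a stretch held 1 match to GAGGAA, the Cd300lb stretch held no match to these letters, and the Pros1 stretch held 5 matches to CCGCCC, of which the last pair overlap. Over the 10 members, GAGGAA was found before 4 genes (Axl, Mfge8, Cd300a and Stab1), CCGCCC before 6 (Mertk, Axl, Tyro3, Gas6, Pros1 and Mfge8) and TGANTCA before 0. Among 32851 RefSeq promoter windows of the same length, 23.3% held GAGGAA, 32.7% held CCGCCC and 6.75% held TGANTCA.

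Libraries held 15835721 to 23109603 counted reads in sWAT and 26658593 to 66719937 in BAT. Ribosomal RNA genes took 1.80% to 19.8% of the counts in sWAT Ctrl and 3.96% to 47.8% in sWAT Csn8AKO, where replicates 3 and 4 were highest, and 0.863% to 15.1% in BAT. Cops8, the gene for CSN8, averaged 35.0 ± 0.911 CPM (SD, n = 4) in Ctrl and 32.2 ± 2.98 CPM in Csn8AKO sWAT (log2 fold change -0.12 ± 0.11 SE, adjusted p = 0.623). In BAT it averaged 39.5 ± 3.22 CPM (SD, n = 5) and 32.1 ± 3.56 CPM (log2 fold change -0.30 ± 0.09 SE, adjusted p = 0.0211). These gene-level counts include exons outside the floxed part and cells without the Cre, so they check the genotype labels only in part. The tissue labels were checked against Adipoq, at 491 CPM or more in sWAT and 617 CPM or more in BAT, and Ucp1, the uncoupling protein of brown adipocytes, at 1568 to 5243 CPM in BAT and at most 6.89 CPM in sWAT. The sWAT libraries Ctrl 1 and Csn8AKO 2 stood apart in lymphocyte markers: 5 B cell genes summed to 152 and 396 CPM there against 2.99 to 11.8 CPM in the other 6, and 5 T cell genes to 163 and 209 CPM against 6.90 to 22.7 CPM.

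In sWAT, 3 of the 10 members rose in Csn8AKO mice and 0 fell at an adjusted p under 0.05. They were Cd300a, 3.11-fold higher, Cd300lb, 2.92-fold higher, and Pros1, 1.72-fold higher. Of the 18843 genes tested in sWAT, 2.30% were called higher and 3.00% lower (434 and 566 genes), a background that moved to 106 and 328 genes with library size alone and to between 147 and 804 higher calls with 1 library left out. The median log2 fold change was 0.74 over the members and 0.03 over all genes tested, and 9 of the 10 members had a positive value. The groups did not overlap for 4 members, the called ones and Mfge8, and 14.0% of all genes tested had groups that did not overlap. Levels below are CPM, the counts of a gene scaled to a fixed library total, after TMM scaling within the tissue, listed in the order of the replicate numbers.

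**Figure D1:**
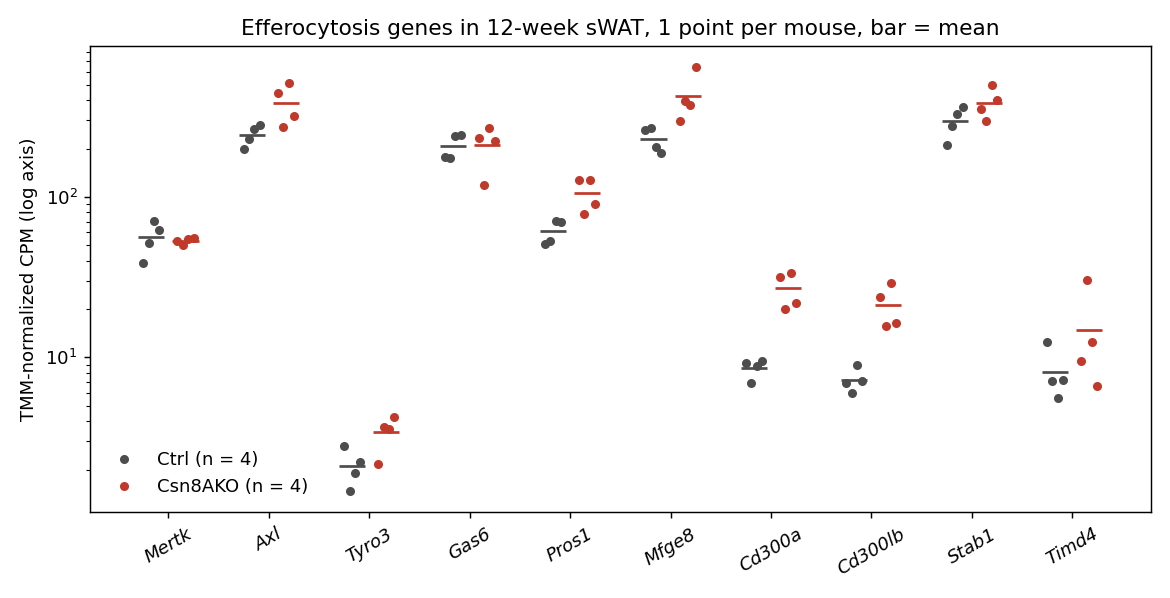
TMM-normalized CPM (log axis) of the 10 genes in each sWAT library, 4 Ctrl (grey) and 4 Csn8AKO (red), with the group mean as a bar. Cd300a, Cd300lb, Pros1 and Mfge8 have groups that do not overlap, and 1 Csn8AKO library has Timd4 at 30.3 CPM.

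Among the 10 members in sWAT, the CD300 pair had the highest log2 fold changes. Cd300a, an inhibitory receptor of myeloid cells that binds phosphatidylserine, was at 9.28, 6.94, 8.82 and 9.50 CPM in the Ctrl libraries and 31.8, 20.1, 33.6 and 21.9 CPM in the Csn8AKO libraries. All the Csn8AKO values lay well above the Ctrl range, and the change was called (log2 fold change 1.64 ± 0.20 SE, adjusted p = 0.00294). Cd300lb, an activating relative of Cd300a, was at 6.92, 5.97, 8.94 and 7.17 CPM in the Ctrl libraries and 23.8, 15.6, 28.9 and 16.4 CPM in the Csn8AKO libraries. Its groups were also apart (log2 fold change 1.55 ± 0.23 SE, adjusted p = 0.00632), and both genes kept their call when any 1 library was left out.

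The TAM receptors of sWAT did not pass the test. Axl, the TAM receptor that responds to GAS6, was at 199, 230.1, 263 and 282 CPM in the Ctrl libraries and 442, 272, 514 and 320.5 CPM in the Csn8AKO libraries. Csn8AKO replicate 2 lay inside the Ctrl range and the other Csn8AKO libraries above it (log2 fold change 0.67 ± 0.22 SE, adjusted p = 0.116), and the adjusted p was 0.0288 without that library and 0.0382 without both libraries rich in lymphocyte markers. Mertk, the TAM receptor of tissue macrophages, was at 38.9, 51.6, 71.2 and 62.5 CPM in the Ctrl libraries and 53.1, 50.0, 54.5 and 55.0 CPM in the Csn8AKO libraries. All the Csn8AKO values fell within the Ctrl range (log2 fold change -0.08 ± 0.17 SE, adjusted p = 0.858), and the sign of this difference turned with the library left out, from -0.22 to 0.05. Tyro3, the remaining TAM receptor, was at 1.47 to 2.81 CPM in Ctrl and 2.18 to 4.26 CPM in Csn8AKO (log2 fold change 0.70 ± 0.30 SE, adjusted p = 0.223), from counts of 29 to 81 reads per library.

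Of the bridging molecules of sWAT, 1 was called. Pros1, a vitamin K-dependent ligand of Mertk and Tyro3, was at 51.0, 53.3, 71.2 and 70.2 CPM in the Ctrl libraries and 127, 78.2, 127 and 89.7 CPM in the Csn8AKO libraries. Every Csn8AKO library was above every Ctrl library and the call was narrow (log2 fold change 0.78 ± 0.20 SE, adjusted p = 0.0473). It was lost in 7 of the 8 fits that left out 1 library, all except that without Csn8AKO replicate 2, and the adjusted p ranged from 0.0134 to 0.151 over the 8 fits. Mfge8 was at 260.4, 269, 203 and 187 CPM in the Ctrl libraries and 296, 394, 372 and 642 CPM in the Csn8AKO libraries. The groups were apart, with Csn8AKO replicate 4 well above the other Csn8AKO libraries (log2 fold change 0.89 ± 0.25 SE, adjusted p = 0.0677), and DESeq2 called it with an adjusted p of 0.00668. Gas6, the vitamin K-dependent ligand shared by the TAM receptors, was at 178, 174, 239 and 242 CPM in the Ctrl libraries and 234, 119, 269.7 and 222 CPM in the Csn8AKO libraries. Its Csn8AKO libraries spread around the Ctrl range (log2 fold change 0.02 ± 0.24 SE, adjusted p = 0.978), and the sign turned with the library left out, from -0.13 to 0.22.

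Stab1 and Timd4 are found on resident macrophages, Stab1 also on some endothelium. Stab1 was at 212, 276, 329.5 and 363 CPM in the Ctrl libraries and 351, 297, 497 and 399.6 CPM in the Csn8AKO libraries. The groups overlapped (log2 fold change 0.39 ± 0.22 SE, adjusted p = 0.360). Timd4 was at 12.4, 7.14, 5.63 and 7.27 CPM in the Ctrl libraries and 9.54, 30.3, 12.6 and 6.66 CPM in the Csn8AKO libraries. The highest value of each genotype was in the library rich in lymphocyte markers, Ctrl 1 and Csn8AKO 2 (log2 fold change 0.86 ± 0.46 SE, adjusted p = 0.338), and the log2 fold change was 0.24 (adjusted p = 0.703) without Csn8AKO 2 and 0.52 (adjusted p = 0.236) without both libraries. The part of lymphocytes in the Timd4 counts was not tested.

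In BAT, 9 of the 10 members rose in Csn8AKO mice and 0 fell, Timd4 being the one that did not pass. Of the 22345 genes tested in BAT, 16.0% were called higher and 15.8% lower (3585 and 3536 genes, or 4183 and 2087 with library size alone). The median log2 fold change was 0.92 over the members and 0.01 over all genes tested, and all 10 members had a positive value. The groups did not overlap for 8 members, against 21.0% of all genes tested. All 9 genes kept their call in each of the 10 fits that left out 1 library.

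**Figure D2:**
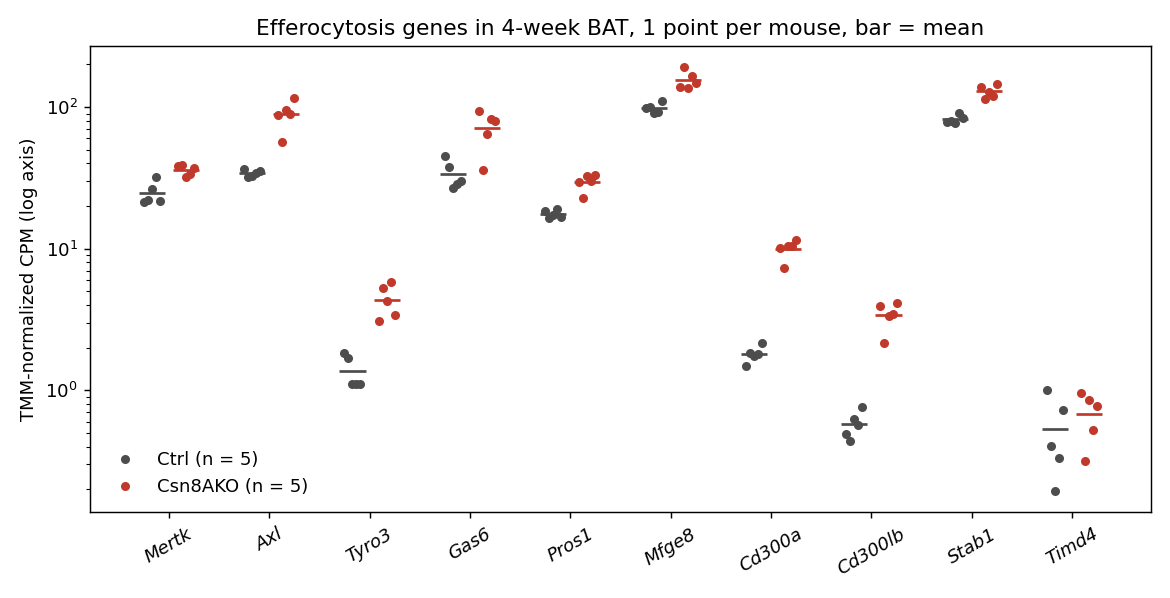
TMM-normalized CPM (log axis) of the 10 genes in each BAT library, 5 Ctrl (grey) and 5 Csn8AKO (red), with the group mean as a bar. All genes except Gas6 and Timd4 have groups that do not overlap, and Gas6 overlaps through 1 Csn8AKO library at 35.8 CPM.

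The CD300 pair also had the highest log2 fold changes of the 10 members in BAT. Cd300a was at 1.47, 1.83, 1.74, 1.79 and 2.15 CPM in the Ctrl libraries and 10.2, 7.29, 10.4, 10.4 and 11.5 CPM in the Csn8AKO libraries. Its Csn8AKO mean was 5.53 times that of Ctrl by the fit (log2 fold change 2.47 ± 0.15 SE, adjusted p = 1.38e-07). Cd300lb was at 0.491, 0.440, 0.629, 0.572 and 0.757 CPM in the Ctrl libraries and 3.95, 2.17, 3.33, 3.46 and 4.14 CPM in the Csn8AKO libraries. These rested on 19 to 42 reads per Ctrl library and 55 to 253 per Csn8AKO library, and the groups were apart (log2 fold change 2.56 ± 0.22 SE, adjusted p = 2.37e-06).

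All the TAM receptors rose in BAT. Axl was at 36.6, 32.0, 32.7, 34.0 and 35.3 CPM in the Ctrl libraries and 88.1, 56.5, 95.5, 88.7 and 117 CPM in the Csn8AKO libraries. The lowest Csn8AKO library, replicate 2, was still above every Ctrl library (log2 fold change 1.39 ± 0.15 SE, adjusted p = 1.59e-05). Tyro3 was at 1.84, 1.69, 1.11, 1.11 and 1.10 CPM in the Ctrl libraries and 3.10, 5.24, 4.26, 5.80 and 3.38 CPM in the Csn8AKO libraries. It had the lowest counts of the 3, 60 to 100 reads per Ctrl library, and groups that were apart (log2 fold change 1.68 ± 0.23 SE, adjusted p = 8.34e-05). Mertk was at 21.5, 22.2, 26.3, 31.8 and 21.6 CPM in the Ctrl libraries and 38.6, 39.0, 32.0, 33.9 and 37.0 CPM in the Csn8AKO libraries. The highest Ctrl and the lowest Csn8AKO library were close, at 31.8 and 32.0 CPM (log2 fold change 0.55 ± 0.11 SE, adjusted p = 0.00216).

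Among the bridging molecules of BAT, Gas6 was at 45.2, 37.9, 27.0, 28.4 and 30.1 CPM in the Ctrl libraries and 94.4, 35.8, 64.1, 82.8 and 79.5 CPM in the Csn8AKO libraries. Csn8AKO replicate 2 lay within the Ctrl range and the other 4 Csn8AKO libraries lay above it (log2 fold change 1.08 ± 0.24 SE, adjusted p = 0.00684). Pros1 was at 18.3, 16.5, 17.4, 19.1 and 16.8 CPM in the Ctrl libraries and 29.8, 22.7, 32.7, 29.8 and 33.0 CPM in the Csn8AKO libraries, and its groups were apart (log2 fold change 0.75 ± 0.10 SE, adjusted p = 9.81e-05). Mfge8 was at 99.1, 99.6, 91.3, 92.1 and 111 CPM in the Ctrl libraries and 139, 192, 137, 164 and 148 CPM in the Csn8AKO libraries. Here replicate 2 was the highest Csn8AKO library, and the groups were apart (log2 fold change 0.66 ± 0.10 SE, adjusted p = 2.18e-04).

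Stab1 was at 77.9, 79.7, 77.8, 90.2 and 84.0 CPM in the Ctrl libraries and 139, 114, 128, 120.5 and 145 CPM in the Csn8AKO libraries. Its Csn8AKO libraries were all above its Ctrl libraries (log2 fold change 0.66 ± 0.08 SE, adjusted p = 5.15e-05). Timd4 had the fewest reads of the members in BAT, with 8 to 57 reads per library, at 0.194 to 1.01 CPM in Ctrl and 0.315 to 0.962 CPM in Csn8AKO (log2 fold change 0.41 ± 0.42 SE, adjusted p = 0.499). Its groups overlapped and it did not pass the test. Csn8AKO replicate 2 was the lowest Csn8AKO library for Axl, Gas6, Pros1, Cd300a, Cd300lb, Stab1 and Timd4, and it also held the lowest summed macrophage markers and the highest share of ribosomal RNA of its group.

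**Figure D3:**
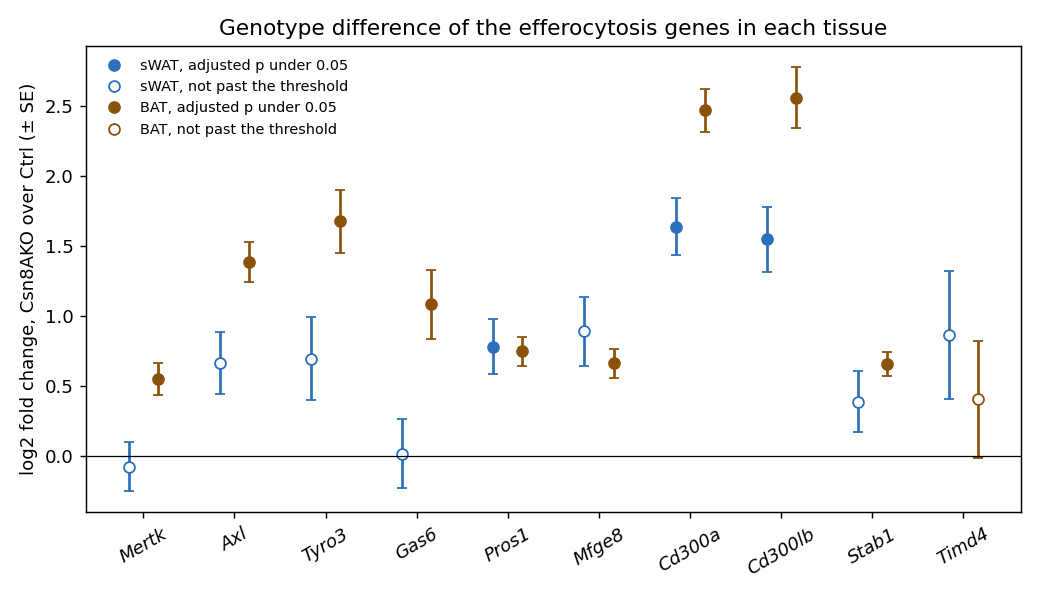
Log2 fold change of Csn8AKO over Ctrl (± SE) for the 10 genes in sWAT (blue, 4 against 4) and BAT (brown, 5 against 5), filled where the adjusted p is under 0.05. Filled points number 3 in sWAT and 9 in BAT, and Cd300a and Cd300lb are the highest of the 10 in both.

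Whether the genotype difference itself differed between 12-week sWAT and 4-week BAT was tested as an interaction over all 18 libraries. By edgeR, 0 of the 10 members were called, while 6 had an unadjusted p under 0.05 and DESeq2 called 1, Cd300a, with an adjusted p of 0.0396. Of the 22509 genes tested, 1.61% were called with a more positive difference in BAT and 0.755% with a more negative one, and 8.65% had a more positive difference at an unadjusted p under 0.05. The 6 members were all more positive in BAT: Cd300a (0.81 ± 0.25 SE, adjusted p = 0.0967), Cd300lb (0.99 ± 0.31 SE, adjusted p = 0.111), Mertk (0.61 ± 0.21 SE, adjusted p = 0.150), Gas6 (1.04 ± 0.36 SE, adjusted p = 0.161), Tyro3 (0.97 ± 0.37 SE, adjusted p = 0.199) and Axl (0.70 ± 0.27 SE, adjusted p = 0.201), each given as the BAT minus the sWAT log2 fold change. Without BAT Csn8AKO replicate 2, Gas6, Cd300a and Cd300lb were called (adjusted p = 0.0394, 0.0448 and 0.0459), and without sWAT Ctrl replicate 1, Mertk was called (0.77, adjusted p = 0.0286). The call of Pros1 in both tissues came with a difference of -0.05 ± 0.22 SE, adjusted p = 0.955.

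Per kilobase of gene length, with TMM factors over all 18 libraries, Gas6 was the most abundant member in Ctrl sWAT at 79.2 ± 14.6 CPM per kb (SD, n = 4). Mfge8 (47.4 ± 8.32) and Axl (46.9 ± 7.61) followed and overlapped, then Stab1 (27.8 ± 6.55). Pros1 (14.6 ± 2.64) and Mertk (12.5 ± 3.22) overlapped, as did Timd4 (3.60 ± 1.24) and Cd300lb (2.40 ± 0.404), and Cd300a (1.76 ± 0.220) and Tyro3 (0.327 ± 0.0813) came last. In Csn8AKO sWAT the order opened with Mfge8 (87.3 ± 31.0), Gas6 (80.1 ± 25.9) and Axl (74.2 ± 22.5), which overlapped.

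In Ctrl BAT the order was Mfge8 (21.8 ± 1.76 CPM per kb, SD, n = 5), Gas6 (13.7 ± 3.18), Stab1 (8.25 ± 0.510) and then Axl (7.02 ± 0.401) and Mertk (5.89 ± 1.06), which overlapped. Pros1 (4.47 ± 0.283) stood below them. Cd300a (0.393 ± 0.0511), Timd4 (0.254 ± 0.158), Tyro3 (0.229 ± 0.0618) and Cd300lb (0.205 ± 0.0434) overlapped each with the next. In Csn8AKO BAT, Mfge8 (34.0 ± 5.16), Gas6 (28.5 ± 8.85), Axl (18.0 ± 4.27) and Stab1 (12.8 ± 1.14) led and neighbours overlapped, and Timd4 (0.321 ± 0.122) was last.

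Markers of macrophages were compared beside the members. The summed level of 10 macrophage genes was 935 to 1256 CPM in Ctrl and 1529 to 2631 CPM in Csn8AKO in sWAT (exact permutation p = 0.0286, adjusted p = 0.0694 over 34 list comparisons), where 6 of the 10 were called higher. In BAT it was 91.5 to 128 CPM in Ctrl and 292 to 429 CPM in Csn8AKO (exact permutation p = 0.00794, adjusted p = 0.0450), with 7 of 10 called higher. The exact p cannot go below 0.0286 with 4 against 4 libraries or 0.00794 with 5 against 5. Each of the 6 lipid-associated macrophage markers, among them Trem2 and Gpnmb, was called higher in both tissues, and their sum was 44.4 to 70.2 CPM in Ctrl and 154 to 268 CPM in Csn8AKO in sWAT and 6.91 to 9.35 CPM in Ctrl and 55.1 to 116 CPM in Csn8AKO in BAT. The 6 resident macrophage markers summed to 523 to 881 CPM in Ctrl and 708 to 1480.5 CPM in Csn8AKO in sWAT (exact permutation p = 0.114, adjusted p = 0.194), with 1 of 6 called higher. In BAT the sum was 50.5 to 71.0 CPM in Ctrl and 87.9 to 119.5 CPM in Csn8AKO (exact permutation p = 0.00794, adjusted p = 0.0450), with 2 of the 5 tested called higher. Those 2 were Mrc1, with means of 22.1 CPM in Ctrl and 52.2 CPM in Csn8AKO, and F13a1, with means of 15.8 and 22.2 CPM. Lyve1, Folr2 and Cd163 were not called in BAT, and Vsig4 was not tested there. Mrc1 and Cd163 were also on the list of 10 macrophage genes.

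Markers of other cell types were summed in the same way. Adipocyte markers were 8653 to 12966 CPM in Ctrl and 3796 to 8551 CPM in Csn8AKO in sWAT (exact permutation p = 0.0286, adjusted p = 0.0694), and 7764 to 9099.8 CPM in Ctrl and 8214 to 10058 CPM in Csn8AKO in BAT (exact permutation p = 0.421, adjusted p = 0.511). Fibroblast and progenitor markers were 475 to 788 CPM in Ctrl and 1108 to 2223 CPM in Csn8AKO in BAT (exact permutation p = 0.00794, adjusted p = 0.0450), where 6 of 6 were called higher, and 3892 to 4694 CPM in Ctrl and 4073 to 7802 CPM in Csn8AKO in sWAT (exact permutation p = 0.114, adjusted p = 0.194). In BAT, neutrophil and T cell sums did not overlap between genotypes (adjusted exact permutation p = 0.0450 for each list), at up to 4.16 and 5.61 CPM in Csn8AKO. Only 2 of the 5 neutrophil markers passed the filter in BAT, where Csf3r was called higher and S100a9 was not (edgeR adjusted p = 0.104). Of the T cell markers, 3 of 5 were called higher there. In sWAT the neutrophil sum was 5.57 to 7.38 CPM in Ctrl and 12.3 to 20.7 CPM in Csn8AKO (exact permutation p = 0.0286, adjusted p = 0.0694), with 1 of 3 tested markers called higher, Csf3r, chosen here after its value was seen, and Ly6g, a defining marker, at 0 in every library. Schwann cell markers were 88.4 to 97.9 CPM in Ctrl and 104 to 217 CPM in Csn8AKO in sWAT (exact permutation p = 0.0286, adjusted p = 0.0694) with 0 of 5 called by edgeR, and 48.1 to 63.2 CPM in Ctrl and 59.6 to 106 CPM in Csn8AKO in BAT (exact permutation p = 0.0159, adjusted p = 0.0694) with 5 of 5 called higher. Smooth muscle and pericyte markers were 479 to 699.8 CPM in Ctrl and 302 to 456 CPM in Csn8AKO in sWAT (exact permutation p = 0.0286, adjusted p = 0.0694), with 2 of 5 called lower. The part of cell composition in the members' differences was not tested.

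Set against the summed macrophage markers, library by library, the members split. Cd300a was 0.735% to 0.992% in Ctrl and 1.21% to 1.40% in Csn8AKO of that sum in sWAT and 1.19% to 2.15% in Ctrl and 2.50% to 3.26% in Csn8AKO in BAT, higher in every Csn8AKO library. Cd300lb was 0.571% to 0.763% in Ctrl and 0.904% to 1.20% in Csn8AKO in sWAT, while in BAT its ranges overlapped. Mertk was 4.16% to 6.07% in Ctrl and 2.02% to 3.27% in Csn8AKO in sWAT and 17.4% to 28.8% in Ctrl and 8.61% to 13.4% in Csn8AKO in BAT, lower in every Csn8AKO library of both tissues although its own level rose in BAT. Pros1 was also lower in every Csn8AKO library, at 5.46% to 6.07% in Ctrl and 4.83% to 5.26% in Csn8AKO in sWAT and 14.8% to 19.0% in Ctrl and 7.70% to 9.35% in Csn8AKO in BAT. Gas6 in sWAT and Mfge8 and Stab1 in BAT were lower without overlap, and Axl, Tyro3 and Timd4 overlapped in both tissues. Lyz2 alone made up 24.8% to 47.1% of the sum in sWAT and 18.0% to 47.5% in BAT, so these ratios lean on 1 gene, and they are descriptions without a test. The sum itself was higher in every Csn8AKO library of both tissues, so a gene that rises less than the sum tends to come out lower. Bulk RNA does not show which cells held each transcript, so the ratios are not levels per macrophage. The share of all genes with ratios that did not overlap was not computed.

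**Figure D4:**
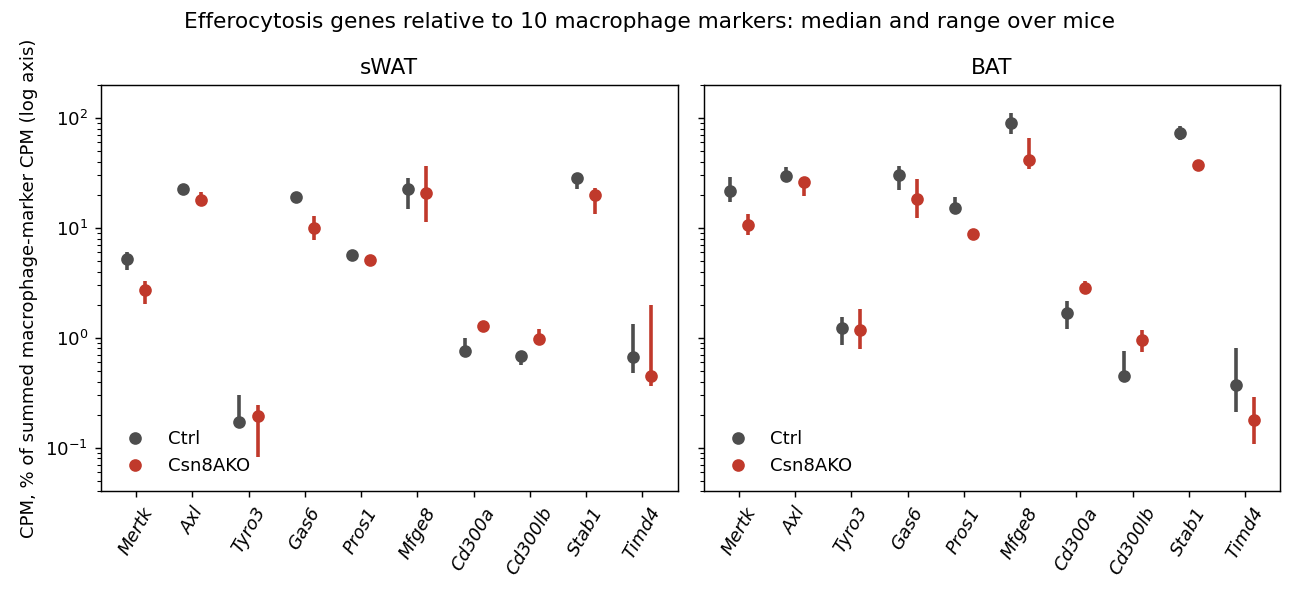
CPM of each gene as a percentage of the summed CPM of 10 macrophage markers in the same library (log axis), with the median as a point and the range over mice as a line, Ctrl grey and Csn8AKO red. Cd300a lies higher in Csn8AKO and Mertk and Pros1 lie lower in both tissues.

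The wider efferocytosis machinery was followed through 105 further genes in 12 roles, of which 94 passed the filter on low counts in each tissue. Trem2, Cx3cr1, Pecam1 and Pparg were also on the marker lists above. In sWAT 11 were called higher and 0 lower, with a median log2 fold change of 0.23, against 2.30% and 3.00% of all genes tested and a median of 0.03. In BAT 41 were called higher and 3 lower, with a median of 0.26, against 16.0% and 15.8% of all genes tested and a median of 0.01. In sWAT the called genes of the roles closest to the members were Trem2, a lipid-sensing receptor of macrophages (2.63, adjusted p = 0.00700), Cd300ld of the CD300 family (1.01, adjusted p = 0.00813), the galectin Lgals3 (1.74, adjusted p = 0.00196) and the complement opsonin C1qb (0.98, adjusted p = 0.0369). In BAT, Trem2 (4.45, adjusted p = 5.51e-07), Stab2, the paralogue of Stab1 (2.22, adjusted p = 3.47e-05), and Cd300ld (1.44, adjusted p = 4.08e-05) rose among the receptors, and Lgals3 (4.43, adjusted p = 6.90e-09) and Anxa1 (2.24, adjusted p = 6.83e-08) among the bridging molecules and opsonins, of which 6 of 9 tested rose.

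Integrins and scavenger receptors, partners of MFG-E8 among them, had 0 of 8 called in sWAT and 4 of 9 higher in BAT, led by Msr1 (1.14, adjusted p = 2.49e-04) and Itgb3 (1.40, adjusted p = 4.25e-04). The integrin genes Itgav (-0.16, adjusted p = 0.105) and Itgb5 (-0.01, adjusted p = 0.958) were not called in BAT. The vitamin K enzymes that GAS6 and protein S need for gamma-carboxylation had 0 of 3 called in sWAT, and in BAT Ggcx rose (0.25, adjusted p = 0.0263) and Vkorc1l1 fell (-0.27, adjusted p = 0.0182). Of receptor shedding and feedback genes, 0 of 8 were called in sWAT, and in BAT 2 rose, the sheddase Adam17 (0.58, adjusted p = 0.00137) and Socs3 (0.82, adjusted p = 0.0250), and 1 fell.

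Of the signals sent by dying cells or shown by healthy ones, 5 of 7 find-me genes rose in BAT, such as Sphk1 (1.36, adjusted p = 8.94e-04) and Panx1 (0.84, adjusted p = 0.00529), and 3 of 5 do-not-eat-me genes, such as Sirpa, the receptor of CD47 (1.65, adjusted p = 6.79e-07), and Cd24a (0.63, adjusted p = 0.0109). In sWAT the called genes of these roles were Sphk1 (2.42, adjusted p = 0.0152) and Sirpa (0.95, adjusted p = 0.0108). Phosphatidylserine exposure had 0 of 8 called in sWAT. In BAT 3 of 8 rose and 1 fell, with a median log2 fold change of -0.16. Among those that rose was the scramblase-family gene Xkr4 (1.56, adjusted p = 0.00328), at 1.52 CPM or less.

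Of the 11 engulfment genes, 1 rose in sWAT, Vav3 (0.81, adjusted p = 0.0174), and 3 in BAT, among them Vav1 (1.22, adjusted p = 2.36e-04) and Rhog (0.33, adjusted p = 0.00389). Of the 12 phagosome maturation genes, 1 rose in sWAT, the NADPH oxidase subunit Cybb (1.06, adjusted p = 0.00788), and 3 in BAT, among them Cybb (1.67, adjusted p = 1.61e-04) and the lysosomal membrane gene Lamp2 (0.46, adjusted p = 9.55e-04). Beside these counts, 2.30% of all genes tested in sWAT and 16.0% in BAT were called higher. The BAT median log2 fold change was 0.22 over the engulfment genes and 0.09 over the phagosome maturation genes. Lipid handling genes rose in 3 of 14 cases in sWAT, among them the cholesterol esterifying enzyme Soat1 (1.31, adjusted p = 0.00396) and the lysosomal lipase Lipa (1.22, adjusted p = 0.00938), and in 6 of 14 in BAT, among them Soat1 (2.08, adjusted p = 1.08e-06) and the cholesterol exporter Abcg1 (1.67, adjusted p = 5.48e-08). Lipa was not called in BAT (-0.20, adjusted p = 0.519), and its interaction was called as more negative in BAT (-1.44, adjusted p = 0.0184).

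The genes whose deviations from their group means over the 18 libraries were most like those of the members, out of 11547 candidates, are given by Pearson's r as a description. The points share their libraries and thus depth and composition. For Axl they were Anpep (r = 0.96), Prrx1 (r = 0.96) and C1ra (r = 0.95), and for Pros1 Ddr2 (r = 0.95), Serping1 (r = 0.93) and Cadm3 (r = 0.93). For Gas6 they were Ext1 (r = 0.93), Mmp14 (r = 0.90) and Olfml2a (r = 0.89), and for Stab1 C5ar1 (r = 0.96), Fnip2 (r = 0.92) and Man2b1 (r = 0.90). Cd300a had Mfsd6 (r = 0.88), Tbx5 (r = 0.87) and Tfpi (r = 0.86), whereas Cd300lb had Sema3e (r = 0.89), Cd300a (r = 0.86) and Nynrin (r = 0.85). Mertk had Zscan26 (r = 0.88), Ccbe1 (r = 0.86) and Specc1l (r = 0.85), Mfge8 had Hdac6 (r = 0.89), Bag6 (r = 0.86) and Axin2 (r = 0.83), Tyro3 had Abcg1 (r = 0.77), Pias4 (r = 0.76) and Ppp1r35 (r = 0.75), and Timd4 had Nrros (r = 0.87), Egr3 (r = 0.87) and Telo2 (r = 0.86). Within the members, Axl and Pros1 deviated together (r = 0.93), as did Axl and Gas6 (r = 0.79), whereas Mfge8 deviated against Pros1 (r = -0.64) and Mertk was close to unrelated to Cd300a (r = 0.03).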

How the data were processed

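RNA was depleted of ribosomal RNA, reverse transcribed with random hexamers (per the labels) and sequenced as paired reads of 150 bases. Per the study's methods, the authors aligned reads with STAR to Ensembl release 101 (GRCm38) and counted unique, unambiguous reads per gene with featureCounts; strand use in counting was not given in the sources used here. For each library the authors deposited the raw count of every gene and its CPM, the count scaled to a fixed library total. The deposited CPM was checked against the counts and not used further. Samples were grouped by the labels. Counts were fitted in R 4.3.3 with edgeR 4.0.16 (TMM factors, filterByExpr with a minimum count of 10, robust quasi-likelihood test, Benjamini-Hochberg adjustment over all genes tested, calls at an adjusted p under 0.05), within each tissue and, for the interaction, over all 18 libraries. The standard error is the log2 fold change divided by the square root of the quasi-likelihood F. Marker sums were compared with a two-sided exact permutation test of the means (scipy 1.17.1). The fits were tested on simulated data. DESeq2 1.42.0, RLE factors, library size alone, other filters, a replicate block, all libraries in one fit, removal of ribosomal RNA genes and each library left out were alternatives. Leaving out 2 pairs of sWAT libraries was added after seeing the data. Gene positions were those of GENCODE M21, where 54907 of 55487 genes had identical positions. Gas6 shares 34 of 2548 exon bases with Tmem255b, and Stab1 112 of 10288 with Nt5dc2, on the opposite strand, so reads there cannot be told apart without strand. Named genes were the 10 members, up to 2 called genes of smallest adjusted p per role and tissue, the 3 genes most like each member with a mean log2 CPM of at least 1, and Cops8, Adipoq and Ucp1; 1 gene that this rule names is not reported here. The members and lists were chosen with earlier results of these data known. One listed gene, Cd300lh, was not analysed here.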

Additional observations from a re-analysis of the deposited data

How the results depend on the processing

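The 9 members higher in BAT were 9 under every alternative and with any 1 library left out, and 0 members were lower in either tissue under any setting. In sWAT the count of 3 became 5 with DESeq2 and 5 with all 18 libraries in one fit, both adding Axl and Mfge8, and was 2 to 4 with 1 library left out. It was 2 with RLE factors, where Pros1 had an adjusted p of 0.0501, 2 with library size alone (0.453), 4 without a filter on low counts, which added Mfge8 (0.0368), 2 without the sWAT Csn8AKO libraries 3 and 4, and 4 without the pair rich in lymphocyte markers. The interaction count of 0 became 1 with DESeq2 (Cd300a), 0 to 3 with 1 library left out, and 1 without the pair rich in lymphocyte markers (Mertk, 0.72, adjusted p = 0.0352). Scaling by library size alone moved the median of all genes to 0.14 in BAT. With a replicate block, 2 members were higher in sWAT, Pros1 being lost (adjusted p = 0.107), and 9 in BAT, and 0 members were called in the interaction. All-gene calls under that block were 134 higher and 165 lower in sWAT, against 434 and 566 without it. Samples that share a number correlated at -0.42 to 0.23 in sWAT and -0.24 to 0.28 in BAT, and not every sample correlated best with its own number. Weak correlation in expression cannot exclude shared litters or handling, so whether the numbers pair mice is not known. The main fits treated the mice as unpaired. Over all genes, sWAT calls were 912 higher and 1034 lower with DESeq2 and 1044 and 1419 in the joint fit. With library size alone they were 106 and 328 in sWAT, 4183 and 2087 in BAT, and 494 more positive and 39 more negative in the interaction (362 and 170 with TMM). Leaving out 1 sWAT library gave 147 to 804 higher calls: 377 without Ctrl 1, 391 without Csn8AKO 4, 804 without Csn8AKO 2, and 147 to 215 without Ctrl 2, Ctrl 3, Ctrl 4, Csn8AKO 1 or Csn8AKO 3. The fewest reads of any member were those of Timd4 in BAT, 8 to 57 per library.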

Other observations

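The summed brown adipocyte markers of sWAT were 32.8 to 102 CPM in Ctrl and 4.53 to 11.7 CPM in Csn8AKO (exact permutation p = 0.0286, adjusted p = 0.0694). Most of the Ctrl sum was Cidea, at 25.5 to 80.0 CPM in Ctrl and 0.181 to 0.299 CPM in Csn8AKO. Of the 4 markers tested there, 1 was called lower, Cidea. Ppargc1a had a negative log2 fold change (-1.29), Dio2 (0.80) and Elovl3 (2.27) had positive ones, and none of these was called. Ucp1 was not tested in sWAT. In BAT, 5 skeletal muscle genes summed to 101.4 CPM in Csn8AKO replicate 1 and 179.5 CPM in replicate 5, against 1.34 to 2.23 CPM in the other 8 libraries, and replicate 5 was also the highest Csn8AKO library for Axl, Pros1, Cd300a, Cd300lb and Stab1, and replicate 1 for Gas6 and Timd4. The 9 members called in BAT were 9 when either library was left out alone, and no fit left out both. Of the 5 mast cell genes, 4 were called higher in BAT although their sum overlapped between genotypes, at 19.1 to 59.5 CPM in Ctrl and 29.2 to 73.4 CPM in Csn8AKO. The gene not called was Kit, at 15.8 to 56.4 CPM in Ctrl and 14.0 to 49.5 CPM in Csn8AKO (log2 fold change -0.27, adjusted p = 0.662). The 4 called genes, Cpa3, Mcpt4, Cma1 and Tpsb2, each had groups that did not overlap.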
